A study of Danio rerio with 18 samples.

Results

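The comparison described here sets TCDD against vehicle between arrays that share a day and a replicate letter, in regenerating caudal fin of adult male zebrafish of the AB strain. TCDD (2,3,7,8-tetrachlorodibenzo-p-dioxin) is a persistent dioxin that binds the aryl hydrocarbon receptor (AHR). The replicate letters of the labels gave 7 such pairs: 2 at 1 day post amputation (dpa; letters B and D), 3 at 3 dpa (A, B and C) and 2 at 5 dpa (A and B). The pairs hold 14 of the 18 arrays of the study. The other 4 arrays, TCDD letters A at 1 dpa and D at 5 dpa and vehicle letters E at 1 dpa and C at 5 dpa, have no partner and were left out. The comparison asks which transcripts differ with TCDD once the level shared by a day and letter is set aside.

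TCDD fish received phosphatidylcholine liposomes loaded with the compound, injected into the peritoneum on the day the fin was cut, to a dose of 50 ng/g. Vehicle fish underwent the same operation and received the liposomes alone. Each Affymetrix array holds RNA pooled from 10 fish, and the harvest cut lay slightly proximal to the first amputation plane, so that some stump is included. Every error below therefore describes the spread between pools, or pairs of pools, and not between fish. What a letter marks, such as a batch or a day of surgery, is not given in the labels.

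Bound by a ligand such as TCDD, the AHR moves to the nucleus, joins its partner Arnt and switches on genes with its response elements, of which the cytochrome P450 genes of the cyp1 family are the best known. In zebrafish Ahr2 is the form held to mediate most toxicity of TCDD. A cut fin regrows through a wound epidermis, a blastema of proliferating mesenchyme and the renewed secretion of bone, collagen and fin-fold fibres, under Wnt, Fgf, Bmp and retinoic acid signalling, and TCDD is known to halt this regrowth.

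Levels are given as log2(intensity + 1) of 1 probe set per gene, and a difference is the TCDD level minus the vehicle level of the same pair on that log2 scale. The median intensity of the 14 arrays lay between 75.13 and 84.12. The labelled tissue was checked against its markers: the keratins krt4, krt5 and krt8, the epidermal epcam and tp63, and the mesenchymal col1a2 and runx2a were above the array median on 14 of 14 arrays, and the actinodins and1 and and2 on 11 and 10 of them. The osteoblast factor sp7 was above the median on 0 of 14 arrays, at 3.70 to 4.36. The 3' minus 5' difference of the GAPDH controls, a sign of RNA quality, averaged 2.43 ± 0.86 on TCDD arrays and 2.32 ± 0.66 on vehicle arrays (SD, n = 7 each). Its paired difference was 0.11 ± 0.31 (exact sign-flip test over the 7 pairs, two-sided p = 0.453) and was largest, at 0.68, in the pair 3 dpa C. For the actin controls the paired difference was -0.03 ± 0.41 (same test, p = 0.828), from -0.52 in 1 dpa B to 0.47 in 3 dpa C. These tests concern the mean over the 7 pairs and not any single pair. In bulk tissue, fewer cells of a type and less RNA per cell cannot be told apart.

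In the paired test, limma's moderated test with a term for each pair, 666 of 15502 probe sets passed an adjusted p of 0.05, which is 4.3% of those tested. Of these, 288 were higher with TCDD and 378 lower. The difference had the same sign in all 7 pairs for 563 of them, in 6 pairs for 102 and in 5 pairs for 1. Its size had a median of 0.61 among the called, and 143 differed by at least 1 on the log2 scale, 54 upward and 89 downward. Without the pair 3 dpa C 269 probe sets were called, without 3 dpa A 305, without 5 dpa B 359 and without 5 dpa A 384. Over all probe sets the median difference was 0.02, 679 (4.38%) were higher in all 7 pairs and 500 (3.23%) lower in all 7. By gene, 184 of 8793 (2.09%) rose and 248 (2.82%) fell, and these shares are the background for the gene lists below. All adjusted p values come from limma over all probe sets, and errors are SD over the 7 pairs unless given otherwise. Where levels of the exposures are said not to overlap, this describes single genes, most of them picked for their differences. The share of all probe sets without overlap was not counted.

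The AHR targets cyp1a and cyp1c1, which encode xenobiotic-oxidising cytochrome P450 enzymes, held the largest rises. The cyp1a level had a lowest, median and highest value of 12.07, 13.65 and 14 on TCDD arrays, against 4.39, 8.03 and 10.13 on vehicle arrays. Every TCDD array lay above every vehicle array, and the vehicle arrays varied more, with an SD of 0.71 over TCDD arrays and 2.21 over vehicle arrays. The pair differences were 3.99 and 7.59 at 1 dpa (B and D), 6.12, 5.45 and 9.61 at 3 dpa (A, B and C), and 4.77 and 3.59 at 5 dpa (A and B). Their mean was 5.87 ± 2.13, or 58.7-fold (adjusted p = 0.0011). The differences were greatest in 3 dpa C and 1 dpa D, the pairs whose vehicle array had cyp1a under the 40th percentile of its levels, the mark used here for a dim transcript. Without 3 dpa C the rise of cyp1a was 38.1-fold.

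The cyp1c1 level was 11.52, 11.70 and 12.17 on TCDD arrays (lowest, median and highest), against 3.60, 6.72 and 7.57 on vehicle arrays. The groups did not overlap, and the TCDD arrays stood close together (SD 0.22, against 1.35 on vehicle arrays). Its rise was 5.51 ± 1.30 (adjusted p = 0.00014), again greatest in 3 dpa C (8.02) and 1 dpa D (6.29). Of its other probe sets, a set that was dim on every vehicle array differed by 3.30 (adjusted p = 0.0044), and a set dim on all arrays by 0.18 (adjusted p = 0.41).

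The remaining AHR targets differed far less. For tiparp, a mono-ADP-ribosyltransferase that feeds back on the AHR, levels were 9.41 to 10.42 on TCDD arrays and 8.58 to 9.41 on vehicle arrays, so that the groups met without overlapping. The difference was 0.76 ± 0.49 (adjusted p = 0.024), and lowest in the B pairs of 1 and 5 dpa (0.11 and 0.01). The call for tiparp was lost without any 1 of 3 dpa A, 3 dpa B, 3 dpa C and 5 dpa A (adjusted p up to 0.080). For nqo1, a quinone reductase, the difference was 0.52 ± 0.41, positive in 6 of 7 pairs, and did not pass (adjusted p = 0.054). Of 10 listed AHR targets 4 were measured, and 3 of these rose. The list median of 3.13 lies between the values of cyp1c1 and tiparp and near no member. Of 8 measured genes of the receptor complex ahr2, the receptor itself, passed, with a rise of 0.34 ± 0.18 (adjusted p = 0.029). That call was lost without 3 dpa A, 3 dpa C, 5 dpa A or 5 dpa B (adjusted p up to 0.089), and the other 7 members, arnt2 and the chaperones among them, did not pass.

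**Figure D1:**
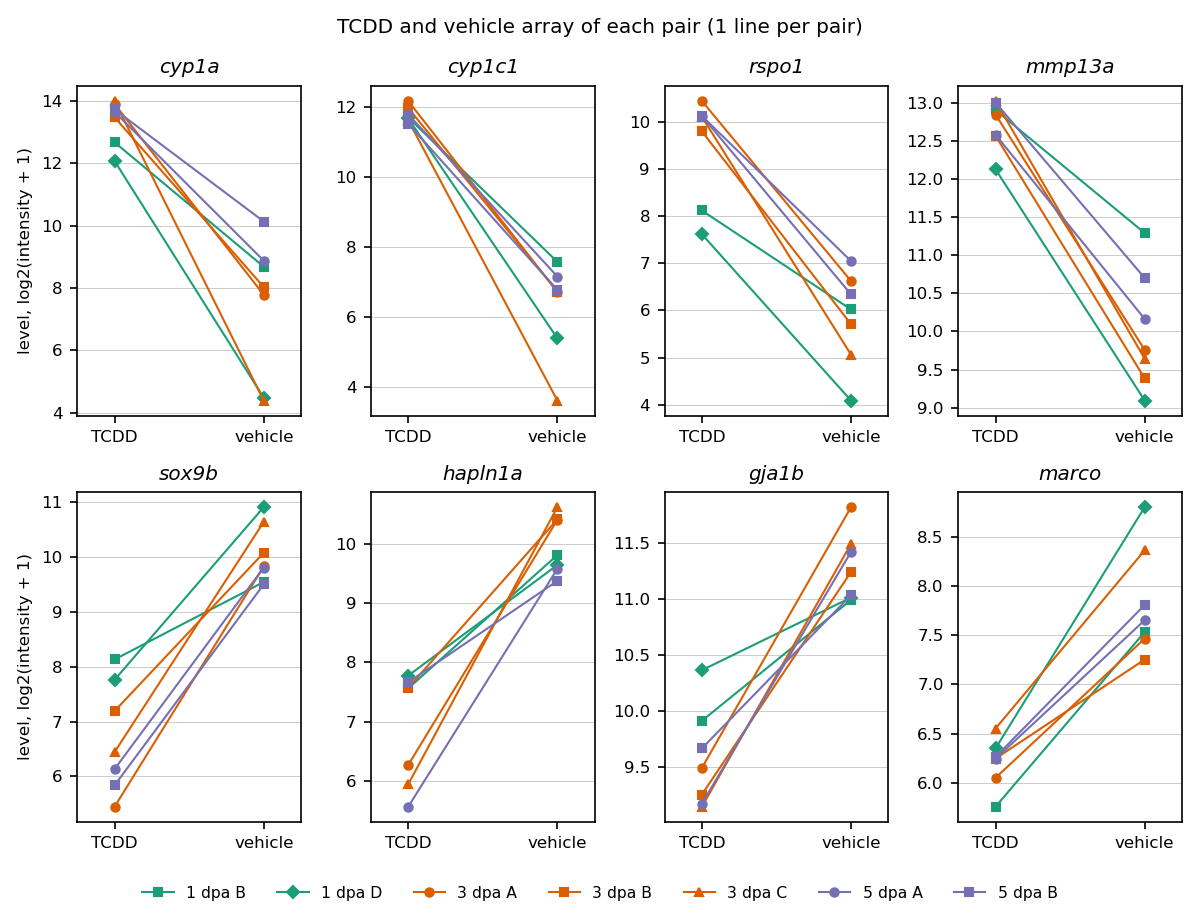
Level of 8 genes, as log2(intensity + 1), on the TCDD array (left) and the vehicle array (right) of each of the 7 pairs, with 1 line per pair, colours for the day and symbols for the letter. The TCDD point is the higher end of every line in the upper row and the lower end in the lower row. The groups do not overlap in any of the 8 genes. These genes were picked for large differences or small adjusted p in these same data. The share of all probe sets without overlap was not counted. For cyp1a the TCDD arrays lie between 12.07 and 14, while the vehicle arrays spread from 4.39 to 10.13.

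Enzymes beyond the cyp1 family rose as well. cyb5a, which encodes the microsomal electron carrier cytochrome b5, had levels of 9.64 to 11.43 on TCDD arrays, against 7.14 to 7.98 on vehicle arrays, and rose by 2.90 ± 0.83 (adjusted p = 0.00045). nt5c2l1, of the cytosolic nucleotidase family, rose by 2.92 ± 0.60 (adjusted p = 9.72e-05) and was dim on all 7 vehicle arrays. The sulfotransferase sult6b1 rose by 1.22 ± 0.53 (adjusted p = 0.0037). In the opposite direction, gstm.1, a glutathione S-transferase, fell by 0.56 ± 0.13 (adjusted p = 0.0011), with a pair difference between -0.82 and -0.41. Of 26 xenobiotic and phase II enzymes 4 rose and 1 fell, with a list median of 0.11. Among the 4, sult1st1 lost its call whichever 1 pair was left out (adjusted p up to 0.113). The call for cyp3c1 held with each pair left out, but its second set differed by 0.32 and did not pass (adjusted p = 0.35).

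Of 17 antioxidant and glutathione genes 3 rose and 1 fell, with a median of 0.12. nfe2l2a, the zebrafish Nrf2 factor of the antioxidant response, rose by 0.84 ± 0.38 (adjusted p = 0.0054), while its second probe set, at a mean level of 5.38 on TCDD and 5.31 on vehicle arrays, differed by 0.07 (adjusted p = 0.94). The peroxidase gene gpx1b rose by 1.1 ± 0.76, with 0.21 and -0.01 at 1 dpa and 0.81 to 1.78 in the later pairs (adjusted p = 0.029). The transferase gene gsto1 rose by 0.89 and the peroxiredoxin gene prdx4 fell by 0.38. All 3 calls were lost without 3 dpa C, and over the pairs whose omission ended them the adjusted p reached 0.091 for gpx1b, 0.072 for gsto1 and 0.058 for prdx4.

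A probe set annotated as mpx, the peroxidase of neutrophils, rose by 3.63 ± 0.41 (adjusted p = 2.8e-06). Its levels were 6.67, 7.67 and 8 on TCDD arrays (lowest, median and highest), against 3.12, 3.91 and 4.79 on vehicle arrays, where it was dim throughout. The other 3 sets annotated mpx differed by -0.12, -0.26 and 0.05 and did not pass (adjusted p = 0.90, 0.34 and 0.77). In that order they were dim on 4, 6 and 7 of the 7 vehicle arrays and on 3, 7 and 7 of the 7 TCDD arrays. A fall would be hard to see at such levels, but the set that rose was also dim on all 7 vehicle arrays. The first of the 3 reached 6.09 on TCDD arrays and 6.87 on vehicle arrays, with pair differences from -1.31 to 1.73. All 4 sets annotated mpx carry, in their probe set names, the same cluster number as the cyp1a set. Which transcript the set that rose measures was not tested. It remains, under its annotated name, in the sums and medians of the myeloid list below.

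In the Wnt pathway, which drives blastema growth in fins, rspo1 and fzd7a rose in every pair. rspo1, a secreted enhancer of Wnt signalling, had levels of 7.62, 10.12 and 10.45 on TCDD arrays (lowest, median and highest), against 4.09, 6.02 and 7.05 on vehicle arrays. The groups did not overlap. Its rise was 3.64 ± 0.91, or 12.5-fold (adjusted p = 0.00020), smallest in 1 dpa B (2.1) and greatest in 3 dpa C (5.06). fzd7a, a Frizzled receptor, rose by 1.83 ± 0.49 (adjusted p = 0.00045), and its difference was 2.02 and 2.59 in the pairs of 1 dpa and 1.2 and 1.21 in those of 5 dpa. The beta-catenin gene ctnnb2 had levels of 12.25 to 12.70 on TCDD arrays, against 11.64 to 12.14 on vehicle arrays, and rose by 0.62 ± 0.17 (adjusted p = 0.00089). Of 29 measured Wnt genes 3 rose and 3 fell, with a median of -0.01. The 3 rises passed with each pair left out. The falls were those of wnt11 (1.2), the antagonist sfrp1a (0.83) and the corepressor ctbp2a (0.39), and none of the 3 passed without 3 dpa A, 3 dpa C or 5 dpa B. For wnt11 the adjusted p was 0.018, and up to 0.059 over those pairs.

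Among matrix-degrading enzymes the collagenase mmp13a rose by 2.72 ± 0.63, or 6.57-fold (adjusted p = 0.00014). Its levels were 12.13, 12.84 and 13.02 on TCDD arrays (lowest, median and highest), against 9.09, 9.76 and 11.29 on vehicle arrays, with no overlap. The gelatinase mmp9 rose by 0.59 (adjusted p = 0.018), whereas mmp2, another gelatinase, fell by 0.45 (adjusted p = 0.0051), each in the same direction in all 7 pairs. The call for mmp9 was lost without 3 dpa A (adjusted p = 0.054) and without the pair term (adjusted p = 0.513), while that for mmp2 held in both. Other large rises were those of zdhhc2, a palmitoyltransferase (2.18 ± 0.70), dchs1b, a dachsous-type cadherin (1.60 ± 0.43), the chemokine gene ccl27a (1.52 ± 0.57) and plekhf1, a phosphoinositide-binding adaptor (1.51 ± 0.71). For plekhf1 the adjusted p was 0.0051 with the pair term and 0.052 without it.

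The skeletal transcription factor sox9b fell most. Its levels were 5.45, 6.45 and 8.14 on TCDD arrays (lowest, median and highest), against 9.51, 9.83 and 10.92 on vehicle arrays. The groups did not overlap. sox9b fell by 3.34 ± 1.00, which is 10.1-fold lower (adjusted p = 0.00056), and its pair difference was smallest in size in 1 dpa B (-1.41) and largest in 3 dpa A (-4.38). Another sox9b set, dim on all 14 arrays, differed by -0.27 (adjusted p = 0.12). runx2a, a factor of the osteoblast lineage, fell by 1.12 ± 0.50 (adjusted p = 0.0042), and ifitm5, a membrane protein of bone-forming cells, by 2.30 ± 1.36 (adjusted p = 0.012). In the pairs of 1 dpa, where ifitm5 stood at 4.87 and 3.63 on TCDD arrays and at 5.98 and 3.93 on vehicle arrays, its difference was -1.11 and -0.29. From 3 dpa it stood at 7.37 to 9.87 on TCDD arrays and 10.82 to 11.61 on vehicle arrays, with no overlap. A second runx2a set, dim throughout, differed by 0.03 (adjusted p = 0.92).

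Of 25 measured bone and cartilage genes these 3 fell and 3 rose, and the list median was -0.01. The rises were the distal-less genes dlx4b (0.94 ± 0.29, adjusted p = 0.0012) and dlx3b (0.58) and the ligand gene bmp2a (0.82). Without 3 dpa A or 3 dpa C dlx4b alone passed among the risers. A sharp fall was also seen for enam, annotated as enamelin, a mineralised-matrix protein: at 1 dpa it was at 2.70 and 4.1 on TCDD arrays and at 4.91 and 8.61 on vehicle arrays, whereas from 3 dpa it stood at 11.63 to 13.12 on TCDD arrays and 13.31 to 13.91 on vehicle arrays. Within either span of days the groups did not overlap, but 1 dpa holds only 2 pairs. There enam was dim on both TCDD arrays and on the vehicle array of pair B. enam fell by 1.89 ± 1.27 (adjusted p = 0.022), and the call was lost without 3 dpa A (adjusted p = 0.065).

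Many genes of the extracellular matrix fell. Of 33 structural matrix genes 16 fell and 0 rose, against 2.82% of all genes lower, with a list median of -0.51. The median was below 0 in each pair, from -0.78 in 5 dpa A to -0.14 in 3 dpa B. The lists were chosen with earlier results of these data known, so the contrast with all genes is a description. hapln1a, a protein that links hyaluronan to proteoglycans, had levels of 5.56, 7.56 and 7.78 on TCDD arrays (lowest, median and highest), against 9.38, 9.82 and 10.63 on vehicle arrays. It fell by 3.08 ± 1.2, or 8.47-fold (adjusted p = 0.0020), with no overlap. Of 5 further hapln1a sets 4 also passed, at -3.23 to -0.85, and the dimmest differed by -0.09. vcanb, a versican that binds hyaluronan, fell by 1.73 ± 0.68 (adjusted p = 0.0027), with no overlap between the exposures.

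Among the other structural members, aspn, a small leucine-rich proteoglycan, fell by 1.1 ± 0.35 (adjusted p = 0.00089). The fibrillar and related collagen genes col11a1a (1.36), col10a1a (1.32), col5a2a (0.68), col1a1a (0.55) and col1a2 (0.54) fell, as did lamb1a, a laminin chain (0.61), and sparc, a collagen-binding protein (0.48). The actinodins, fibres of the fin fold, were low in both exposures at 1 dpa: and2 had 3.43 and 3.92 on TCDD arrays and 3.58 and 4.35 on vehicle arrays. From 3 dpa and2 reached 8.75 to 11.04 on TCDD arrays and 11.54 to 12.98 on vehicle arrays, and the groups of those days did not overlap. and2 fell by 1.95 ± 1.21 (adjusted p = 0.016), a call lost without 3 dpa A or 3 dpa C (adjusted p up to 0.053). The fibronectin genes fn1a and fn1b did not pass, at 0.03 and 0.11. The count of structural genes that fell was 11 without 3 dpa A or 3 dpa C and 18 without 1 dpa D.

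Enzymes and chaperones that modify collagen fell too. Of 21 matrix processing genes 11 fell and 2 rose (mmp13a and mmp9, above), with a list median of -0.46, and every pair had a median below 0. pcolce2b, an enhancer of procollagen cleavage, fell in every pair. Its levels were 5.37, 6.77 and 7.29 on TCDD arrays (lowest, median and highest), against 6.61, 8.31 and 8.56 on vehicle arrays. The groups overlapped, because pcolce2b was lower in both exposures at 1 dpa, but each pair difference lay between -1.68 and -1.24. The mean was -1.38 ± 0.17 (adjusted p = 9.72e-05). Further falls were those of serpinh1b, the collagen chaperone (1.59), the prolyl hydroxylases p4ha1b (1.55) and p4ha2 (0.89), the lysyl hydroxylases plod1a (1.12) and plod3 (0.46), loxl2b, a lysyl oxidase of collagen crosslinks (1.09), pcolcea (1.17) and the collagen chaperone fkbp10b (0.72). The metalloproteinase inhibitor timp2a fell by 0.39. Without 3 dpa C the calls for pcolcea, plod3 and fkbp10b were lost, and over the pairs whose omission ended them the adjusted p reached 0.051, 0.120 and 0.064. The falls of the list numbered 8 to 12 with 1 pair left out.

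Outside these lists, gja1b, the fin gap-junction connexin gene whose mutants have short fins, fell by 1.71 ± 0.68 (adjusted p = 0.0023). Its levels were 9.15, 9.49 and 10.36 on TCDD arrays (lowest, median and highest), against 10.99, 11.24 and 11.82 on vehicle arrays, with no overlap. hgd, which acts in tyrosine catabolism, fell by 1.90 ± 1.11, bhmt, a betaine-homocysteine methyltransferase, by 1.76 ± 0.76, and hsd17b8, a hydroxysteroid dehydrogenase, by 2.02 ± 0.93. All 3 were lower at 1 dpa than later in both exposures, so that their TCDD and vehicle arrays overlapped although each pair went down. Another hsd17b8 set, at a mean level of 5.54 on TCDD and 5.45 on vehicle arrays, differed by 0.09. The galectin gene lgals2a fell by 1.18 ± 0.33 without overlap (adjusted p = 0.00068). Among even rises, esm1, a secreted proteoglycan of endothelial cells, rose by 1.33 ± 0.28 (adjusted p = 0.00039), also without overlap.

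**Figure D2:**
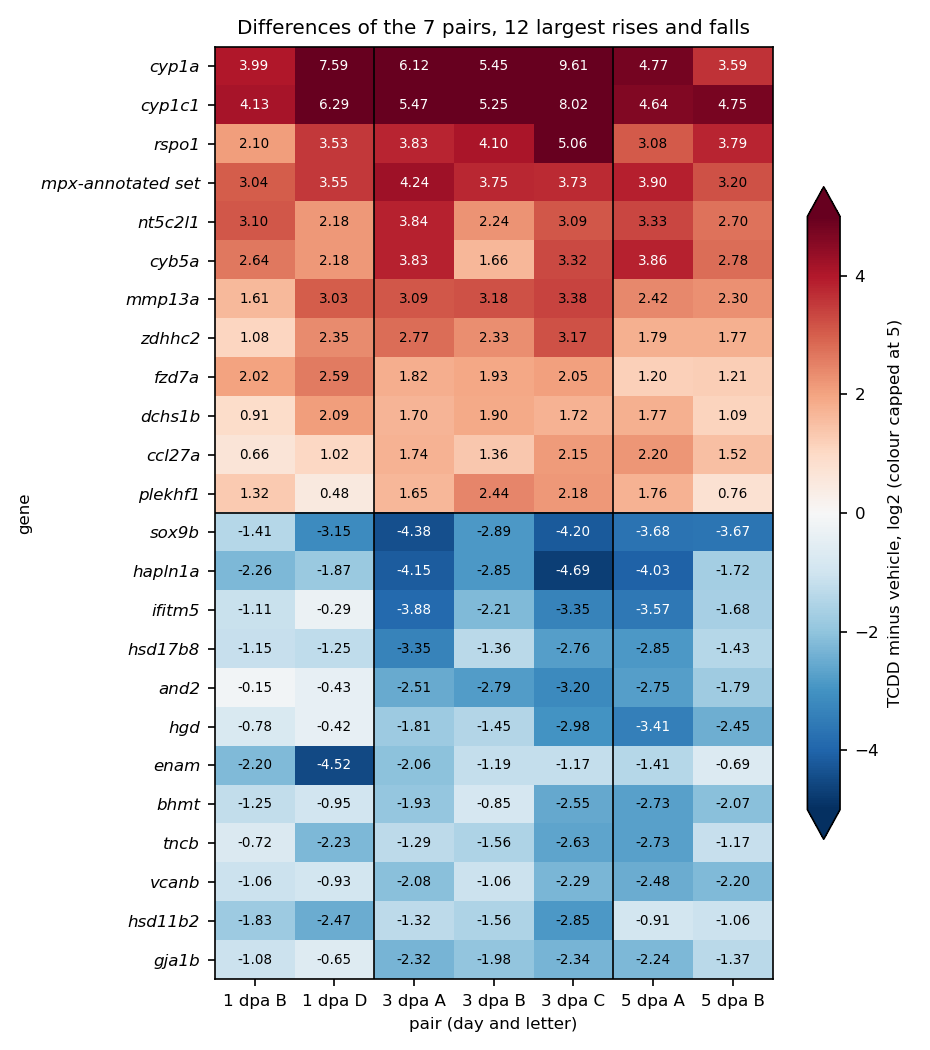
Pair differences, TCDD minus vehicle on the log2 scale, for the 12 largest rises and the 12 largest falls (rows) in each of the 7 pairs (columns, by day and letter), with the value written in each cell. Every cell of the upper block is positive and every cell of the lower block negative, as the choice of these genes required. In the lower block and2 has -0.15 and -0.43 at 1 dpa, and the largest difference of enam is also there (-4.52 in pair D).

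Target genes of Fgf signalling rose in part. Of 20 measured genes 3 rose and 0 fell, with a median of 0.18. il17rd, a feedback antagonist of Fgf receptors, rose by 1.03 ± 0.44 (adjusted p = 0.0042), with 0.24 and 0.57 at 1 dpa and 1.14 to 1.39 in the later pairs. The factor etv4 rose by 0.72 and the antagonist spry4 by 0.70, and neither passed without 3 dpa C (adjusted p up to 0.064 and 0.065 over the omitted pairs). The ligands fgf3, fgf8a, fgf10a and fgf24 and 4 receptors did not pass.

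Of 43 blastema and patterning genes 7 rose and 4 fell, with a median of 0.07. bambia, a decoy receptor of Bmp and activin ligands, had levels of 8.81, 10.90 and 11.33 on TCDD arrays (lowest, median and highest), against 7.96, 9.72 and 9.97 on vehicle arrays, and rose by 1.15 ± 0.34 (adjusted p = 0.00073). The groups overlapped across days, but bambia was higher with TCDD in every pair. The homeobox genes msx2b (1.06 ± 0.60) and msx2a (0.74 ± 0.36) rose, while msx1b (0.52) and hoxa13b (0.59) fell. The Bmp-responsive id3 fell by 0.78 and the growth factor gene mdkb by 0.83. Fewer of these calls held without 1 pair: 3 rises were left without 3 dpa A, 3 dpa C or 5 dpa B, and 1 or 2 falls without any pair of 3 or 5 dpa.

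Among genes that make, carry, sense or degrade retinoic acid, 4 of 22 fell and 0 rose, with a median of -0.18. cyp26b1, which degrades retinoic acid, had levels of 9.94, 10.51 and 10.71 on TCDD arrays (lowest, median and highest), against 10.97, 11.46 and 11.92 on vehicle arrays, without overlap. It fell by 1.07 ± 0.47 (adjusted p = 0.0042), and its other 3 sets passed at -1.01, -0.83 and -1.29. The receptor gene rxrga fell by 0.67 ± 0.27 (adjusted p = 0.0081). The falls of the retinol carrier stra6 (1.17) and the reductase dhrs3a (0.76) were lost without 3 dpa A, 3 dpa C, 5 dpa A or 5 dpa B, and stra6 was at 2.86 to 3.31 on TCDD arrays, against 3.39 to 5.21 on vehicle arrays, which is dim on both.

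Of 12 pigment cell genes 3 fell and 0 rose, with a median of -0.07. gch2 and pcbd1, enzymes of pteridine synthesis, fell by 1.42 ± 0.83 (adjusted p = 0.014) and by 0.82 ± 0.27 (adjusted p = 0.0021), and slc2a15b, a transporter of light-coloured pigment cells, fell by 0.96 (adjusted p = 0.035). Without 3 dpa C pcbd1 alone passed.

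Markers of the cell types the fin could hold were set beside these changes. In a summed level the brightest members weigh most, and the ranges given pool the days. The summed level of the 34 epidermal genes was 18.24 to 18.47 on TCDD arrays and 18.30 to 18.46 on vehicle arrays. Of them 3 rose and 2 fell: krt94, a keratin, fell by 1.47 ± 1.01 (adjusted p = 0.024) and lye by 1.04 (adjusted p = 0.039), while krt17 rose by 0.52, krt97 by 0.44 and epcam by 0.25. Without 3 dpa A or 3 dpa C krt17 was the only epidermal call. The summed level of the 22 myeloid genes, in which the brightest members weigh most, was 15.17 to 15.81 on TCDD arrays and 15.33 to 15.69 on vehicle arrays. Of these genes 1 rose and 2 fell, with a list median of -0.24, and 1 was higher and 5 were lower in all 7 pairs. An unadjusted p under 0.05 in limma was found for 13 of the 22, against 2770 of all 15502 probe sets. Besides the mpx set, marco, a scavenger receptor of macrophages, had levels of 5.76 to 6.55 on TCDD arrays, against 7.25 to 8.80 on vehicle arrays, and fell by 1.63 ± 0.45 (adjusted p = 0.00061). The complement gene c1qc fell by 1.08 ± 0.47 (adjusted p = 0.0043), with no overlap. The myeloid median was -0.57 and -0.61 in the pairs of 1 dpa, against -0.40 to 0.15 in the later pairs.

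Of 20 inflammation genes 4 fell and 0 rose: the chemokine genes cxcl12a, cxcl12b and ccl25b, and hp, the plasma haemoglobin-binding protein, which fell by 0.97 ± 0.40 (adjusted p = 0.0051). hp was the member that passed with every pair left out, and the 3 chemokine calls were lost without 3 dpa C. It also was the 1 call among 19 liver and plasma genes. No member passed among 5 lymphocyte, 13 erythrocyte and 20 skeletal muscle genes, whose medians were 0.01, 0.15 and 0.02. Of them 1, 2 and 4 had an unadjusted p under 0.05 in limma, a share near that of all probe sets (2770 of 15502). Of 11 vascular genes plvapb, of fenestrated endothelium, fell by 0.57, and of 18 nerve and glia genes fabp7a fell by 2.18 and mbpb rose by 0.36. Those 3 calls were lost without any 1 pair of 3 or 5 dpa (adjusted p up to 0.075, 0.132 and 0.123). The part of cell makeup in the changes above was not tested.

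None of 46 ribosomal protein genes, 26 unfolded protein and heat shock genes and 13 sterol and apolipoprotein genes passed, with medians of -0.01, -0.04 and -0.01, and 0, 4 and 3 had an unadjusted p under 0.05 in limma. By pair the sterol median ran from -0.85 in 3 dpa B to 0.35 in 3 dpa A. Of 56 cell cycle genes 1 fell, against 2.82% of all genes, with a list median of -0.04. That gene was the inhibitor cdkn1ca, which fell by 1.21 ± 0.84 (adjusted p = 0.027). Its call was lost without any 1 pair of 3 or 5 dpa (adjusted p up to 0.089). Of 23 glycolysis genes gpia and pfkpa rose by 0.38 and 0.48, and of 26 respiratory chain genes cyc1 rose by 0.20. The respiratory chain list had a median of 0.10, with 4 members higher in all 7 pairs, and 11 had an unadjusted p under 0.05 in limma, against 2770 of all 15502 probe sets. The calls for pfkpa and cyc1 were lost without 3 dpa C, 5 dpa A, 5 dpa B or either pair of 1 dpa (adjusted p up to 0.083 and 0.120), and that for cyc1 also without 3 dpa A or 3 dpa B.

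**Figure D3:**
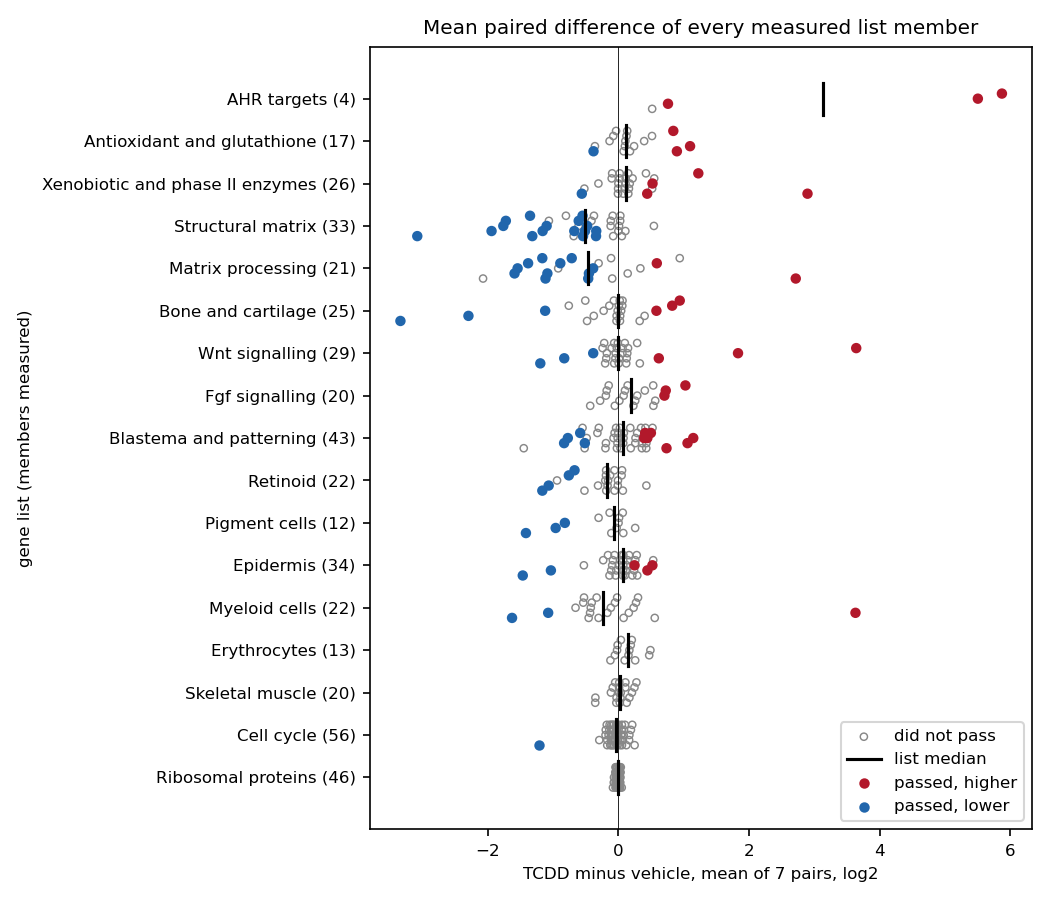
Mean difference over the 7 pairs, TCDD minus vehicle on the log2 scale, for every measured member of 17 gene lists, with filled points for genes that passed and a bar at the list median. The structural matrix and matrix processing lists lie mostly below 0 (medians -0.51 and -0.46), the AHR targets above it (3.13), and the medians of the cell cycle, muscle and ribosomal lists lie between -0.04 and 0.02. The point at 3.63 among myeloid cells is the set annotated mpx.

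The paired test was set beside one without the pair term. On the same 14 arrays without it, with day and exposure as terms, 307 probe sets (1.98%) were called. Of these, 305 were also called with it, while 361 were called with the pair term alone and 2 without it alone. The median SE of a difference over all probe sets was 0.095 with the pair term and 0.115 without it, and the residual SD was smaller with it for 68.9% of them. In serpinh1b both arrays of 1 pair were low: in 1 dpa B it stood at 7.82 on the TCDD array and 8.01 on the vehicle array, while the other pairs were at 9.46 to 10.43 on TCDD arrays and 11.56 to 12.49 on vehicle arrays. Its adjusted p was 0.0046 with the pair term and 0.115 without it, and the difference in 1 dpa B was small (-0.19) beside the rest (-2.41 to -1.40).

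The tenascin gene tncb behaved alike, with 4.64 on the TCDD array and 5.36 on the vehicle array of 1 dpa B, while the other pairs were at 5.96 to 8.37 on TCDD arrays and 8.45 to 9.86 on vehicle arrays. It fell by 1.76 ± 0.77 (adjusted p = 0.0039, and 0.252 without the pair term), while a second tncb set, dim throughout, differed by 0.02. hsd11b2, a glucocorticoid-inactivating dehydrogenase, had levels of 5.08 to 8.71 on TCDD arrays and 7.54 to 10.27 on vehicle arrays, which overlap widely. Yet every pair of hsd11b2 went down, by 0.91 to 2.85, and its mean difference was -1.72 ± 0.72 (adjusted p = 0.0031, and 0.089 without the pair term). By lists, the pair term raised the structural matrix falls to 16, against 10 without it, the matrix processing falls to 11, against 8, and the blastema rises to 7, against 2.

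**Figure D4:**
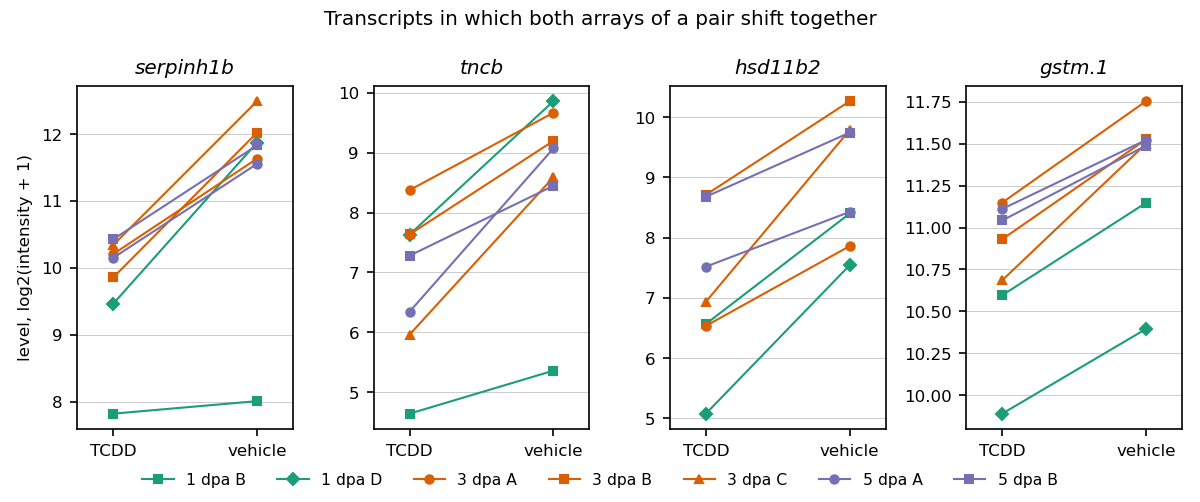
Levels of 4 genes, as log2(intensity + 1), on the TCDD array (left) and vehicle array (right) of each pair, with 1 line per pair. The TCDD and vehicle arrays overlap for tncb, hsd11b2 and serpinh1b, and both arrays of 1 dpa B lie far below the others for serpinh1b and tncb. The lines of gstm.1 run nearly parallel, at differences of -0.82 to -0.41.

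Differences were smaller at 1 dpa than later among the called probe sets. The median over those called higher was 0.39 at 1 dpa, 0.68 at 3 dpa and 0.60 at 5 dpa, and over those called lower -0.44, -0.74 and -0.73. The calls rest on 2 pairs of 1 dpa and 5 later ones, so these medians are a description. A direct F test of unequal differences between days called 0 of 15502 probe sets (0.0%), with a smallest adjusted p of 0.0806. In this test limma had 4 residual degrees of freedom. Its unadjusted p was under 0.05 for 2115 probe sets (13.6%), and for 155 of those called in the paired test (23.3%). Having 0 calls therefore does not show that the days were alike. The 5 named genes with the smallest F-test p each had an adjusted p of 0.151. Among them gchfr, a regulator of pterin synthesis, differed by 0.40 and 0.64 at 1 dpa, 1.71 to 1.90 at 3 dpa and 0.61 and 0.79 at 5 dpa. anos1b, an anosmin gene, differed by -0.42 to 0.16 before 5 dpa and by 3.08 and 1.94 at 5 dpa. The 5 dpa vehicle arrays had anos1b at 6.61 and 6.19, against 8.81 to 9.73 on earlier vehicle arrays, while TCDD arrays stayed at 8.13 to 9.70 over all days.

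Calls made without a letter were then read in the pairs of that letter. Without letter A 115 probe sets were called (0.742%), without B 219 (1.41%), without C 269 (1.74%) and without D 733 (4.73%). In the letter left out, 44 of 45 called higher were higher for A, 111 of 118 for B, 99 of 103 for C and 229 of 283 for D. Of those called lower, 69 of 70 were lower in A, 101 of 101 in B, 164 of 166 in C and 322 of 450 in D. Letter D is a single pair of 1 dpa, and there the median of those called higher was 0.36, against 0.63 in the fit of the other pairs, and of those called lower -0.22, against -0.69. For letter B, with a pair on each day, the medians were also smaller in size, at 0.56 and -0.65, against 1.01 and -0.996 in the fit. For letter A the medians were larger in size, at 1.22 and -1.03, against 1.01 and -0.92 in the fit. For letter C they were 1.11 and -0.94, against 0.85 and -0.75. Letters A and C hold no pair of 1 dpa, while their fits did, so letter and day cannot be told apart here. Over all probe sets, 46.4% were higher in A, 53.3% in B, 57.1% in C and 62.2% in D.

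**Figure D5:**
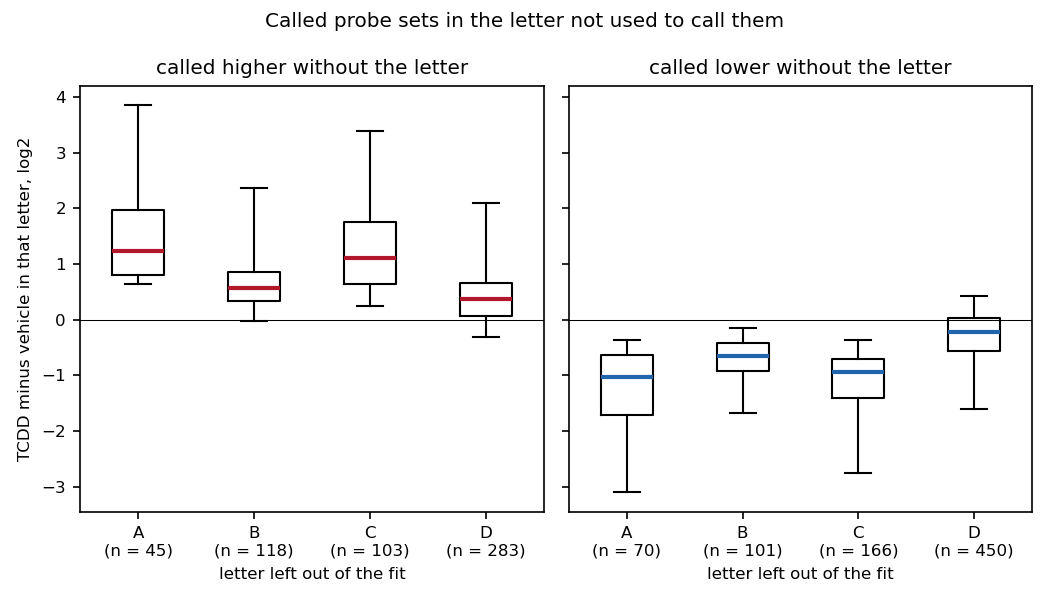
Difference, TCDD minus vehicle on the log2 scale, in the pairs of the letter that was left out, for probe sets called higher (left) or lower (right) from the other letters, with boxes from the 25th to the 75th percentile, whiskers from the 5th to the 95th and the number of probe sets under each. The boxes for A, B and C stay on the called side of 0, and that of D, the single 1 dpa pair, reaches past 0 for those called lower, with a median of -0.22.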

How the data were processed

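Regenerating fin RNA was hybridised to Affymetrix zebrafish arrays, 1 per pool of 10 fish. The deposited table holds a linear intensity for each probe set. The submitters' processing notes name GCRMA as the tool the authors used, with no version or settings, and scanner files were not used here. Of 15617 probe sets, 115 controls were left out. Gene symbols are those of the platform annotation, brought up to date through Entrez IDs with RefSeq's table (for names alone): 10795 probe sets had 1 symbol, 10711 of them in that table, 135 several and 4572 none. Each of 8793 genes was represented by its brightest probe set over the 14 paired arrays.

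Values were taken as log2(intensity + 1), which understates changes of dim transcripts. limma 3.58.1 (R 4.3.3) fitted pair and exposure over 14 arrays (lmFit, eBayes with trend, 6 residual degrees of freedom), two-sided, with Benjamini-Hochberg adjustment over 15502 probe sets and a threshold of 0.05. An F test compared the difference between days. Fits were tested on simulated data with independent noise of the fitted spread and with changes placed only in brighter probe sets. Such data follow the fitted model, so they check the code and not whether the model suits these arrays. Figures used matplotlib 3.10.9 in Python 3.11.15. The number of arrays limits the precision.

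Pairing came from the letters of the labels. Deviations from group means correlated above 0.1 in all 7 same-letter pairs (0.20 to 0.70, median 0.57). They did so in 2 of 20 same-day pairs of other letters (median -0.17, highest 0.24). Each group mean is taken over few arrays, so positive values for same letters pull those of other letters below 0. The contrast of the medians is therefore partly arithmetic, and the pairing rests on the letters. Alternatives were no pair term, all 18 arrays, letters or pairs left out, other scaling, pseudocount, filter and priors.

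Members, the 27 gene lists and the rule for named genes were chosen with earlier results of these data known. Named were the 12 largest rises and falls with 1 symbol, the same sign in 7 pairs, a difference of 1 or more and a level of 5 or more in the higher exposure, all AHR targets, up to 4 members per other list by adjusted p, the 5 most even rises and falls, the 5 most variable calls, the 5 smallest F tests and the 5 largest calls seen with the pair term alone. Named members that did not pass are mostly counted, and further list members were named after their values were seen.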

Additional observations from a re-analysis of the deposited data

Results flagged for a closer look

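Of 140 sets of 7 values behind named genes, 9 held a value far from the other 6 by Dixon's criterion, where chance alone gives about 1 in 20. Among pair differences, these were enam in 1 dpa D (-4.52), ahr2 in 3 dpa B (0.72) and esm1 in 3 dpa C (1.93). Among levels, the TCDD and vehicle arrays of 1 dpa B stood apart for serpinh1b (7.82 and 8.01), the vehicle array of 1 dpa B for tncb (5.36) and sox19b (4.99), and the TCDD array of 5 dpa B for fabp7a (5.78) and ncana (6.40). The 7 arrays of an exposure span 3 days, so day and array both enter these levels.

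For 3 named genes every pair of a day went opposite to every pair of another day. All 3 were named for a small p in the F test between days, so unlike days were part of their choice. How often such opposite days occur over all probe sets was not counted. The mean difference of pcp4a was 0.53 at 1 dpa, -1.53 at 3 dpa and -0.31 at 5 dpa. That of lye was 0.081 at 1 dpa, -1.60 at 3 dpa and -1.31 at 5 dpa, and that of cygb1 was -0.62 at 1 dpa, -1.26 at 3 dpa and 0.20 at 5 dpa. The F test of a difference between days did not pass for any of the 3 (limma adjusted p = 0.151 each).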

How the results depend on the processing

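The 666 called probe sets (288 higher and 378 lower) fell to 307 (130 and 177) without the replicate block on the same 14 arrays, to 230 (100 and 130) with 1 mean difference per letter, and to 115 (45 and 70), 219 (118 and 101) and 269 (103 and 166) without letters A, B and C. These fits have fewer pairs, no pairing or, with 1 mean per letter, fewer values, and the cause of each drop was not tested further. With 1 pair left out the totals ran from 269 to 733 (103 to 289 higher, 166 to 450 lower). With pairs as a random replicate block over 18 arrays 969 were called, 472 of them higher. Without the replicate block all 18 arrays gave 514, and the other fits, of scaling, pseudocount, filter, prior and weighting of days, gave 589 to 893. The F test between days called 2 with a pseudocount of 16, 1 after median centring, and 0 to 1 with a pair left out. Of 80 named genes that passed, 51 passed with each pair left out in turn and 31 under all 23 alternatives. Over 2959 values of named genes under alternatives, 0 of the called changed sign, 303 no longer passed and 47 newly passed. Dim levels on vehicle arrays limit how well the size of the nt5c2l1 and mpx-annotated rises is known. For cyp1a this holds in the pairs 1 dpa D and 3 dpa C, and for cyp1c1 where its vehicle array was dim.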
